A study of Mus musculus with 6 samples.

Results

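The chromatin around Il9, the gene for the T helper cytokine IL-9, was described from 100 kb upstream to 100 kb downstream of the gene, in all 6 libraries of an ATAC-seq experiment on mouse Th9, Th2 and Th17 cells. Every peak of the 6 deposited lists that fell in this window was taken, which gave 60 of 732982 peaks. Peaks of different libraries that overlapped or touched were joined, and this gave 16 of 236017 regions. A region was named by the distance of its midpoint from the Il9 start, and lies upstream or downstream of that start as Il9 is read. Il9 (ENSMUSG00000021538.3) is read from the minus strand of chromosome 13, at 56479277 to 56482246 of GRCm38, the assembly that mm10 displays, and the window spans 56379277 to 56582246, or 202970 bp.

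ATAC-seq cuts open chromatin with the Tn5 transposase, so that fragments pile up where DNA is not wrapped in tightly packed nucleosomes. Naive CD4+ CD62L+ T cells of wild-type C57BL/6 mice (labelled C57BL6/J, spleen) were activated with antibodies to CD3 and CD28 and cultured for 5 days. Th2 cultures received IL-4, human IL-2 and an antibody to IFNγ. Th9 cultures received the same plus TGF-β1. Th17 cultures received IL-6, TGF-β1, IL-23 and IL-1β with antibodies to IFNγ, IL-4 and IL-2. There were 2 libraries in each of 3 subsets, numbered 1 and 3, and nothing in the sources used here says whether they came from separate mice, so the spread between them may be technical. Each library was made from a whole culture, in which fewer cells with an open site and a less open site in each cell cannot be told apart.

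The lists held 100317 to 142213 peaks. Within each list, the fold enrichment of a peak over background was turned into a percentile, where 100 is the strongest peak of that library. The depth of the lists differed. Fragment number relative to Th9 replicate 1 ran up to 2.47. It was worked out from the enrichment and p-value columns and divided by the width of the shortest peak in the list. The weakest peak that was called had a fold enrichment of 2.11 in Th9 replicate 1 against 1.71 to 1.83 in the other 5 libraries. Marker promoters were in part as labelled. The Il17f promoter was called in both Th17 libraries and no other, that of Il4 in the 4 libraries of Th9 and Th2 but not in Th17, and that of Il13 in both Th2 libraries only, whereas Il5 was called in all 6 and Il17a also in Th2 replicate 3. Of the T cell markers, Cd3e was called in all 6 libraries and Cd4 in 4. Of the markers of other cell types, Ms4a1 (B cells) and Csf1r (macrophages) were called in none, and Adgre1 (macrophages) in both Th9 libraries (percentiles 11.3 and 47.8) and both Th2 libraries (8.96 and 44.97) but in no Th17 library. These 4 are also the libraries that had a peak at the Il9 promoter and 21 kb upstream of it, and the part of such cells in those results was not tested.

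IL-9 is made by activated Th9 cells and promotes mast cell growth, mucus production and allergic inflammation. IL-4, acting through STAT6, together with TGF-β induces the gene, IL-2 acts on it through STAT5, and the AP-1 family factor BATF takes part in its activation. Transcription of a cytokine gene of this kind rests on a promoter and on conserved non-coding sequences (CNS) before and behind the gene, which transcription factors can occupy once the chromatin has opened. At Il9 these are named CNS0, CNS1 (the promoter), CNS2 and the distant enhancer CNS-25. The peak lists do not mark them, so the regions are given by distance here, and the region 25 kb upstream lies at the distance for which CNS-25 is named.

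The 300 bases about the midpoint of the strongest peak are shown for 4 regions other than the promoter, chosen because differences between subsets were found there. The regions 11 and 13 kb downstream lie nearer to Il9 than those 21 and 25 kb upstream and are not printed. The stretches printed lie outside annotated genes and are read from GRCm38.p6 on the minus strand, in the direction of Il9, 5′ to 3′. Capitals mark matches on either strand to TGANTCA, the word of AP-1 and BATF, and TTCNNNGAA, the word of STAT factors. The regions are, in the order printed, chr13:56507111-56507410, chr13:56502603-56502902, chr13:56488271-56488570 and chr13:56476776-56477075.
25 kb upstream: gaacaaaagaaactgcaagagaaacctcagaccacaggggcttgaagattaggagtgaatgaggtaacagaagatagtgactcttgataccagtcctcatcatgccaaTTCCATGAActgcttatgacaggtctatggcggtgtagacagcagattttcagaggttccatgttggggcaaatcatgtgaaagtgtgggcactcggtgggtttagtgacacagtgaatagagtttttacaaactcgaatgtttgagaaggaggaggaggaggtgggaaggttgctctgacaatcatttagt
21 kb upstream: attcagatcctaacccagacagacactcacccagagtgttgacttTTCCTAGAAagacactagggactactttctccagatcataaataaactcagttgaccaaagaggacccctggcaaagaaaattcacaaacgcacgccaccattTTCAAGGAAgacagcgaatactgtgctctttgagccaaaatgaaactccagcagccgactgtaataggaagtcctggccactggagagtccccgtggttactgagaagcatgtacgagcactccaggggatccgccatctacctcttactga
6 kb upstream: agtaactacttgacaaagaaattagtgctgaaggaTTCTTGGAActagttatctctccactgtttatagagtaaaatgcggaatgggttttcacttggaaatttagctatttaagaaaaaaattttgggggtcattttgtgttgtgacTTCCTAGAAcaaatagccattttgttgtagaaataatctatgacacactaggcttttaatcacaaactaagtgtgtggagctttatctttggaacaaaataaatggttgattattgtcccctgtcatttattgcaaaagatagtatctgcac
5 kb downstream: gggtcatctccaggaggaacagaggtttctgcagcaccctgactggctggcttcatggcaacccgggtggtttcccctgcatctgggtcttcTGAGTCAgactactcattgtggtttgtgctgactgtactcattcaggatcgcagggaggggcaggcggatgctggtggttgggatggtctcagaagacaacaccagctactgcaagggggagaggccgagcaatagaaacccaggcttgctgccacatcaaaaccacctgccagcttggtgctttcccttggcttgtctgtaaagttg
The STAT word was found 1 time 25 kb upstream, 2 times 21 kb upstream and 2 times 6 kb upstream, and not in the 300 bases of the downstream region. The AP-1 word had 1 match in the downstream region and none in the 3 upstream stretches. Among the central stretches not printed, the STAT word occurred 1 time each at 53 and 11 kb downstream and 100 kb upstream. The AP-1 word occurred there 1 time each at 62 and 13 kb downstream. Across 236016 regions of the 6 lists, 8.51% held the STAT word and 12.3% the AP-1 word in their central 300 bases. Over their whole joined length, the regions 6 and 21 kb upstream (1043 and 1558 bp) each held 1 AP-1 word and the downstream region (5059 bp) held 3. Whole lengths differ between regions, and no share over all regions is given for them. The joined promoter region held 1 AP-1 word and 1 STAT word. GAGGAAGT, a word of the ETS factor PU.1, was in none of the 16 central stretches (2.67% of all regions), but over whole lengths it occurred 2 times in the downstream region, 1 time 21 kb upstream and 1 time 98 kb upstream. AGATAA, a word of GATA factors, occurred in the central stretches 2 times 6 kb upstream, 1 time 13 kb downstream and 1 time at the promoter (11.7% of all regions). A match is a description of letters only.

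The promoter is shown because its peak was the feature of the gene itself that separated the libraries. The 250 bases before the RefSeq start of Il9 in GRCm38.p6, chr13:56482258-56482507 on the minus strand, are printed in the same way.
Il9 promoter: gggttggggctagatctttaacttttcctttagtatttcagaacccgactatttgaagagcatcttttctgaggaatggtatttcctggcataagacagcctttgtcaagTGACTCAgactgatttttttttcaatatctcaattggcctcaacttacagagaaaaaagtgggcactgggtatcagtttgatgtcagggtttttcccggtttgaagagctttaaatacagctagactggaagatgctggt
It held 1 AP-1 word and no STAT word. Among 32851 RefSeq promoter stretches searched in the same way, 6.75% held the AP-1 word and 7.02% the STAT word.

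Open chromatin in the Il9 window was most extensive in Th9 cells and least in Th17 cells. Th9 replicates 1 and 3 had 13 and 14 peaks in the window, Th2 replicates had 9 and 9, and Th17 replicates had 8 and 7. The peaks covered 10349 and 15220 bp in Th9, 8175 and 8511 bp in Th2, and 3873 and 3783 bp in Th17. No value of a subset overlapped those of another, although the 2 Th9 libraries were far apart. The means were 12784.5 ± 3444 bp in Th9, 8343 ± 238 bp in Th2 and 3828 ± 63.6 bp in Th17 (SD, n = 2).

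Set against the share of the genome that each list covered, the window was richer in open chromatin than the genome as a whole in Th9 and poorer in Th17. That share is of whole chromosomes and not of windows about genes. Peaks covered 5.10% and 7.50% of the window in Th9, which was 1.37 and 2.53 times the share of the genome covered in the same libraries. In Th2 the ratio was 0.934 and 1.06, close to the genome as a whole. In Th17 it was 0.542 and 0.555. The Th9 libraries exceeded the other 4 by a mean of 6699 bp (exact permutation test over libraries, two-sided p = 0.133, one-sided p = 0.0667), or by 4263.5 bp without Th9 replicate 3 and 9134.5 bp without Th9 replicate 1, and by 5.25 peaks (two-sided p = 0.0667). With a −log10 q of at least 5, the excess in peaks fell to 1.75 (same permutation test, two-sided p = 0.2). The smallest one-sided p that 15 arrangements allow is 0.0667, so these tests could not pass a threshold of 0.05.

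**Figure D1:**
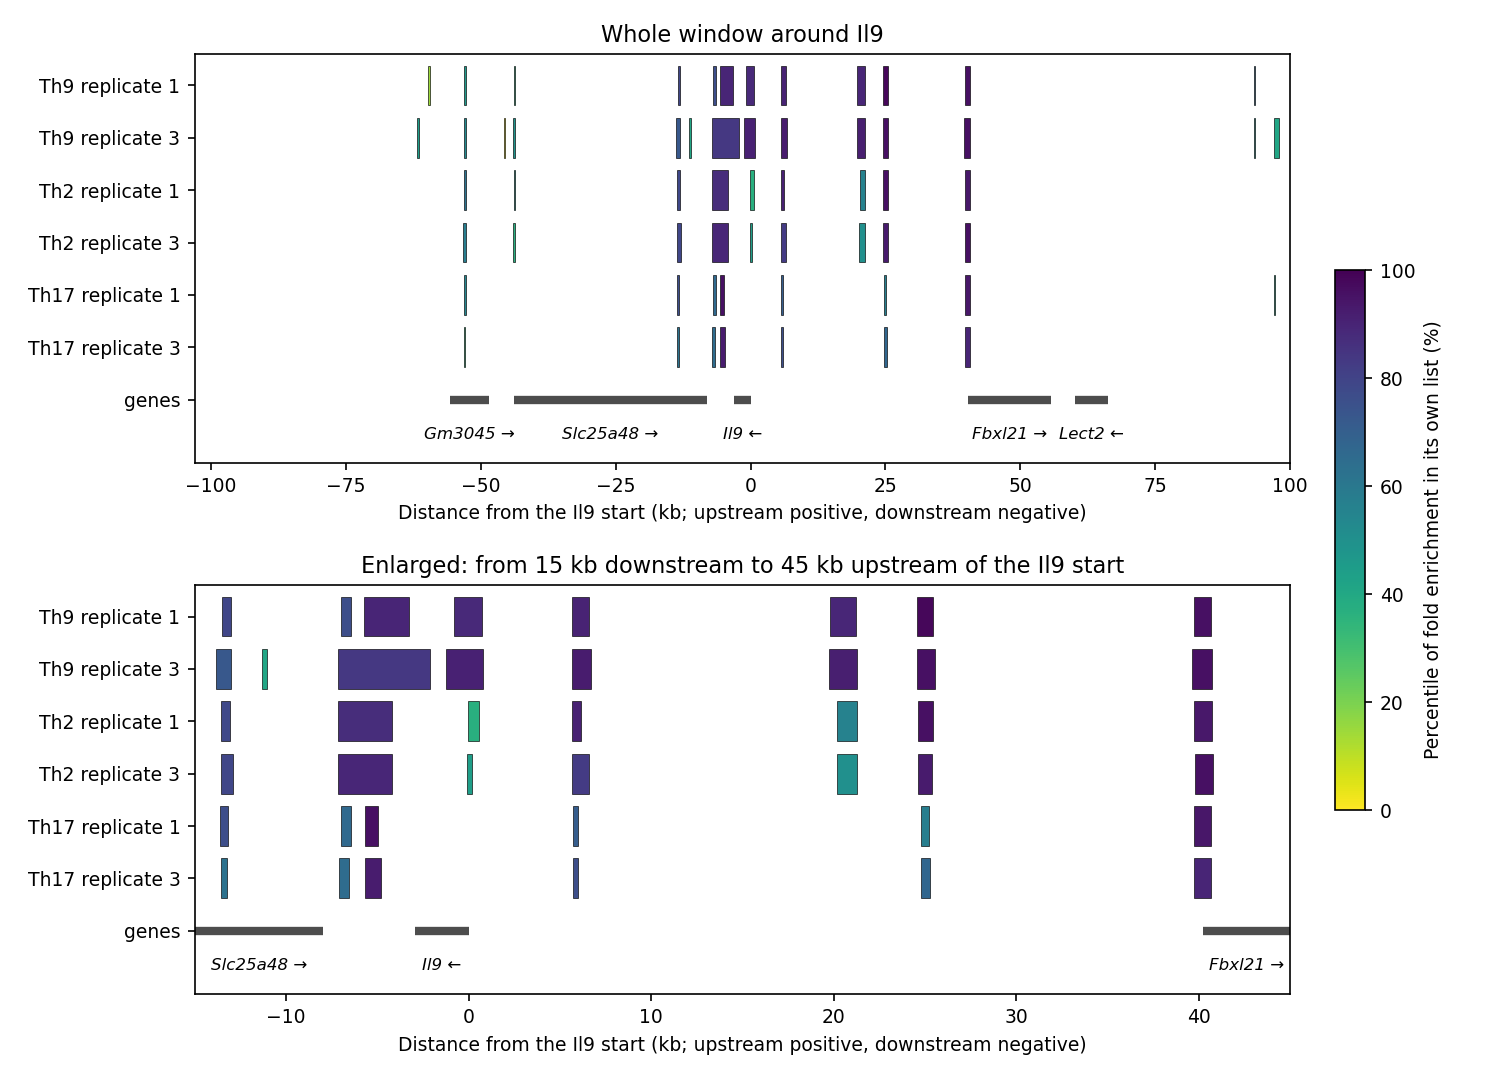
Peaks of the 6 libraries (rows) in the Il9 window against distance from the Il9 start in kb, upstream to the right, for the whole window (top) and enlarged (bottom); each box is 1 peak drawn to scale, its colour is its percentile within its list, and grey bars are gene bodies with an arrow for the strand. The boxes at the promoter and 21 kb upstream are absent from both Th17 rows and paler in Th2 than in Th9, and the box 25 kb upstream is narrow and paler in Th17.

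Most of the covered sequence lay close to the gene. The stretch from 40 kb upstream to 10 kb downstream of the gene body held 8017 and 11295 bp of peaks in Th9, 6267 and 6336 bp in Th2, and 2264 and 2489 bp in Th17. Further downstream, peaks covered 1361 and 2007 bp in Th9, 1202 and 1405 bp in Th2, and 780 and 613 bp in Th17. Further upstream they covered 971 and 1918 bp in Th9, 706 and 770 bp in Th2, and 829 and 681 bp in Th17. Thus both Th9 libraries lay above the other 4 near the gene and beyond 40 kb upstream, where Th2 and Th17 overlapped. The latter stretch holds part of the region 40 kb upstream, whose widths overlapped between subsets, and the regions 93, 98 and 100 kb upstream. The region 98 kb upstream, also called in Th17 replicate 1, gave 973 of the 1918 bp in Th9 replicate 3. With a −log10 q of at least 5, no library had a peak 93, 98 or 100 kb upstream. In the limma fit of covered bp over 21951 windows of the same flanks about protein-coding genes, Il9 differed between Th9 and Th17 by 1.45 ± 0.18 on the log2(bp + 1000) scale (SE, 95% interval 1.02 to 1.89), with 107 windows differing by more in the direction of Th9, but its adjusted p was 0.086. The difference was 0.74 ± 0.18 between Th9 and Th2 (adjusted p = 0.16) and 0.71 ± 0.18 between Th2 and Th17 (adjusted p = 0.198). This fit called 0 windows (0%) in each of the 3 comparisons, while 4297, 3716 and 3107 windows had an unadjusted p under 0.05 for Th9 against Th17, Th9 against Th2 and Th2 against Th17.

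**Figure D2:**
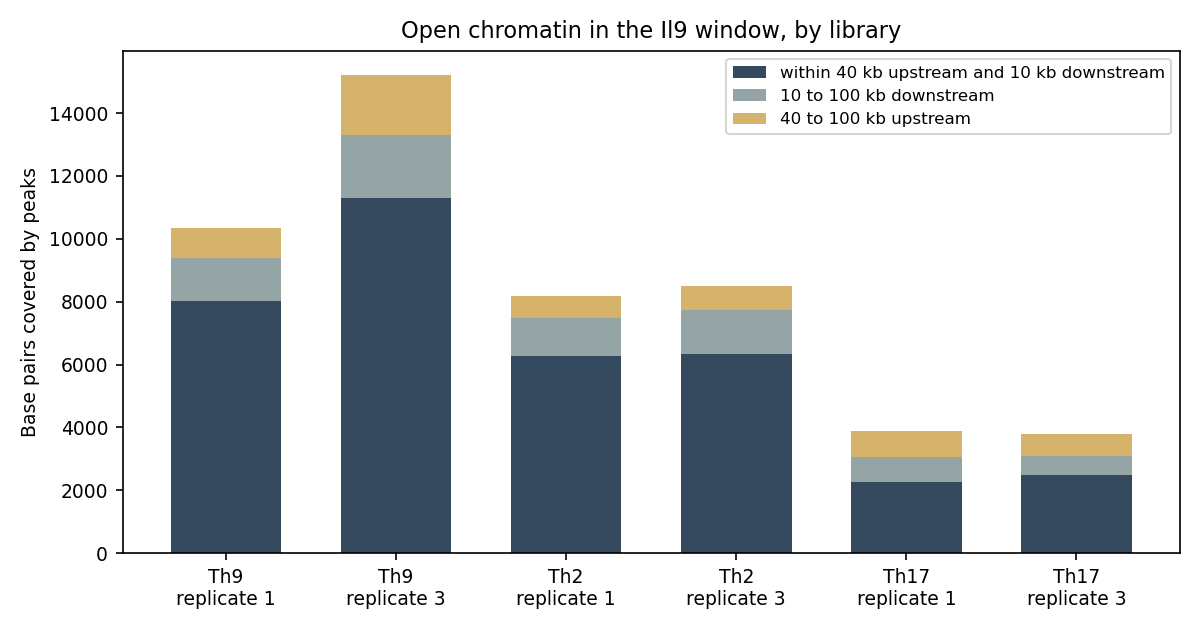
Base pairs of the Il9 window covered by peaks in each library (bars), split by distance from the gene body. The bars reach 10349 and 15220 bp in Th9, 8175 and 8511 bp in Th2, and 3873 and 3783 bp in Th17, and the part nearest the gene is the largest in every library.

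At the Il9 promoter, open chromatin was wide and strong in Th9, short and weak in Th2, and not called in Th17. The joined region ran from 56480974 to 56483045, over the start, the first exons and the introns between them. The Th9 peaks were 1517 and 2072 bp wide with fold enrichments of 5.09 and 6.77, and the Th2 peaks 621 and 287 bp wide with 2.07 and 2.25. Both Th2 peaks lay across the start of the gene, whereas the Th9 peaks reached further into the gene body. Their percentiles were 88.6 and 90.7 in Th9 and 37.1 and 44.4 in Th2, so the subsets did not overlap. Where no peak was called the list holds no value, which bounds the enrichment only by the weakest peak called there, 1.76 and 1.71 in the Th17 libraries. A fit with filled Th17 values has its direction fixed in advance, so no p against Th17 is given. In a limma fit in which missing calls were set to the lowest fold enrichment of the list, over 148283 regions, the difference between Th9 and Th2, whose 4 values were all measured, was 1.38 on the log2 scale with an adjusted p of 0.0827, which did not pass. The filled Th17 values add no spread of their own to this fit.

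A peak pattern of this kind was rare among promoters. Only 186 of 21951 protein-coding genes (0.847%) had a promoter peak in the 4 libraries of Th9 and Th2 but in no Th17 library, and Il9 was among them with its neighbour Slc25a48. The 5 genes whose 6 promoter percentiles lay closest to those of Il9 (a promoter without a peak counted as 0, Euclidean distance over 6 libraries) were H2-Oa, Nupr1, Cd70, Gjc1 and Slc26a10. Of these, Gjc1 also had a peak in Th17 replicate 3 (percentile 1.32) and so is not among the 186. H2-Oa, which encodes the alpha chain of an MHC class II modulator, was nearest at a distance of 24.7 percentile units, with 84.1 and 74.2 in Th9 and 53.9 and 50.2 in Th2. Nupr1, a stress-induced nuclear protein, followed at 25.7, and Cd70, the ligand of CD27, at 30.8. Each of the 5 had a smaller step between Th9 and Th2 than Il9.

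The region 25 kb upstream (56506823 to 56507799, intergenic) was called in every library, and its strength separated Th17 from the other subsets. Fold enrichment was 11.0 and 10.7 in Th9, 7.29 and 7.12 in Th2, against 2.35 and 2.66 in Th17. Widths were 864 and 977 bp (Th9) and 870 and 800 bp (Th2), against 401 and 500 bp (Th17). In the 2 Th9 libraries it ranked 2662 and 4222 from the top of the list, in Th17 53618 and 32615. After quantile normalization of log2 fold enrichment, limma gave a difference of 1.85 ± 0.19 between Th9 and Th17 (95% interval 1.45 to 2.26, adjusted p = 0.000189), and only 7 of the 50493 regions called in all libraries differed by more in that direction. Th2 exceeded Th17 by 1.44 ± 0.19 (adjusted p = 0.000238). Between Th9 and Th2 the difference was 0.42 ± 0.19 (95% interval 0.02 to 0.82, adjusted p = 0.26), which did not pass, although the 2 Th9 fold enrichments lay above the 2 Th2 values.

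The region 21 kb upstream (56501974 to 56503531, intergenic) had the same libraries with and without a call as the promoter. Both Th9 libraries had a broad peak, 1423 and 1558 bp wide, at fold enrichments of 5.25 and 7.33. Both Th2 libraries had a peak of lesser width, 1076 and 1103 bp, at 2.32 and 2.39, and neither Th17 library had a call. The Th2 peaks here were thus weak but not short, in contrast to the promoter. In the fit with missing calls filled, the difference between Th9 and Th2 was 1.32 on the log2 scale and did not pass (limma, adjusted p = 0.0842).

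The region 6 kb upstream (56487895 to 56488937, intergenic) was open in all 6 libraries. Its fold enrichment was 5.63 and 7.64 in Th9, 5.24 and 4.47 in Th2, against 2.82 and 3.13 in Th17. The Th9 peaks were 902 and 1034 bp wide and the Th17 peaks 305 and 307 bp, while the 2 Th2 libraries were unlike each other at 491 and 935 bp. Th9 exceeded Th17 by 0.89 ± 0.21 (limma, adjusted p = 0.0193). This call was lost without Th9 replicate 3 (0.66, adjusted p = 0.148), without Th17 replicate 1 (0.72, adjusted p = 0.219) and without Th17 replicate 3 (1.05, adjusted p = 0.0694). Over its 14 alternatives the adjusted p ran from 0.00246 to 0.219. The differences of 0.37 ± 0.21 between Th9 and Th2 (adjusted p = 0.384) and 0.52 ± 0.21 between Th2 and Th17 (adjusted p = 0.177) did not pass.

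**Figure D3:**
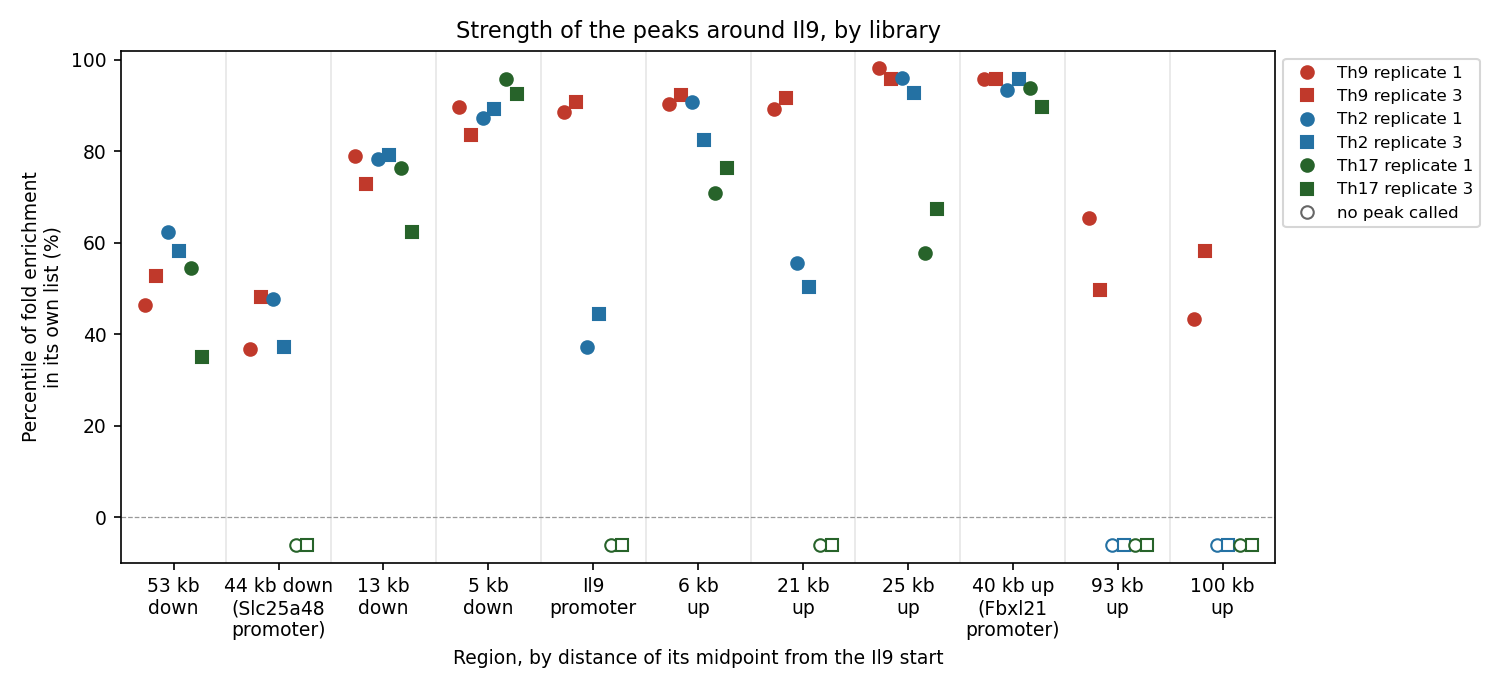
Percentile of fold enrichment within its own list (vertical axis, in percent) for each library at the 11 regions called in both libraries of at least 1 subset; circles are replicate 1, squares replicate 3, and open symbols under the dashed line are libraries with no peak. At the promoter and 21 kb upstream Th9 lies at 88.6 to 91.8, Th2 at 37.1 to 55.5 and Th17 has no peak, and 25 kb upstream Th17 lies at 57.8 and 67.5, below the other 4 libraries.

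Downstream of the gene, the region with its midpoint 5 kb from the start (56475091 to 56480149) was open in all 6 libraries and differed in shape. In Th17 it consisted of 2 separate peaks, the stronger being short, 736 and 869 bp, with fold enrichments of 8.21 and 5.96 and percentiles of 95.9 and 92.5. This was the highest percentile that either Th17 library had in the window. In Th2 a single peak of 2932 and 2955 bp filled the space between these peaks and beyond them, at 4.49 and 5.94. Th9 replicate 1 had 2 peaks, of 557 and 2467 bp, the wider at 5.37. Th9 replicate 3 had a single peak of 5041 bp at 4.48, which ran into the last exon of Il9.

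By fold enrichment, the downstream region was lower in Th9 than in Th17 by 0.69 ± 0.18 on the log2 scale (limma, adjusted p = 0.0346) and lower in Th2 than in Th17 by 0.65 ± 0.18 (adjusted p = 0.0388). The fold enrichment of a broad peak is a mean over its length. The base pairs covered went the other way, with 3024 and 5041 bp in Th9, 2932 and 2955 bp in Th2, and 1271 and 1439 bp in Th17. When fold enrichment times width was summed over the region, a measure chosen after seeing the data, Th9 exceeded Th17 by 1.15 (adjusted p = 0.0555) and Th2 exceeded Th17 by 0.78 (adjusted p = 0.137). Without either Th9 library or either Th17 library, the difference of Th9 from Th17 in fold enrichment ran from -0.80 to -0.57 but missed the threshold (adjusted p from 0.0889 to 0.288), and over all 15 alternatives its adjusted p ran from 0.0183 to 0.347. That of Th2 from Th17 missed it without Th2 replicate 1 (-0.53, adjusted p = 0.242), without Th17 replicate 1 (-0.54, adjusted p = 0.307) and without Th17 replicate 3 (-0.77, adjusted p = 0.129), and passed in 6 of its 15 alternatives.

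**Figure D4:**
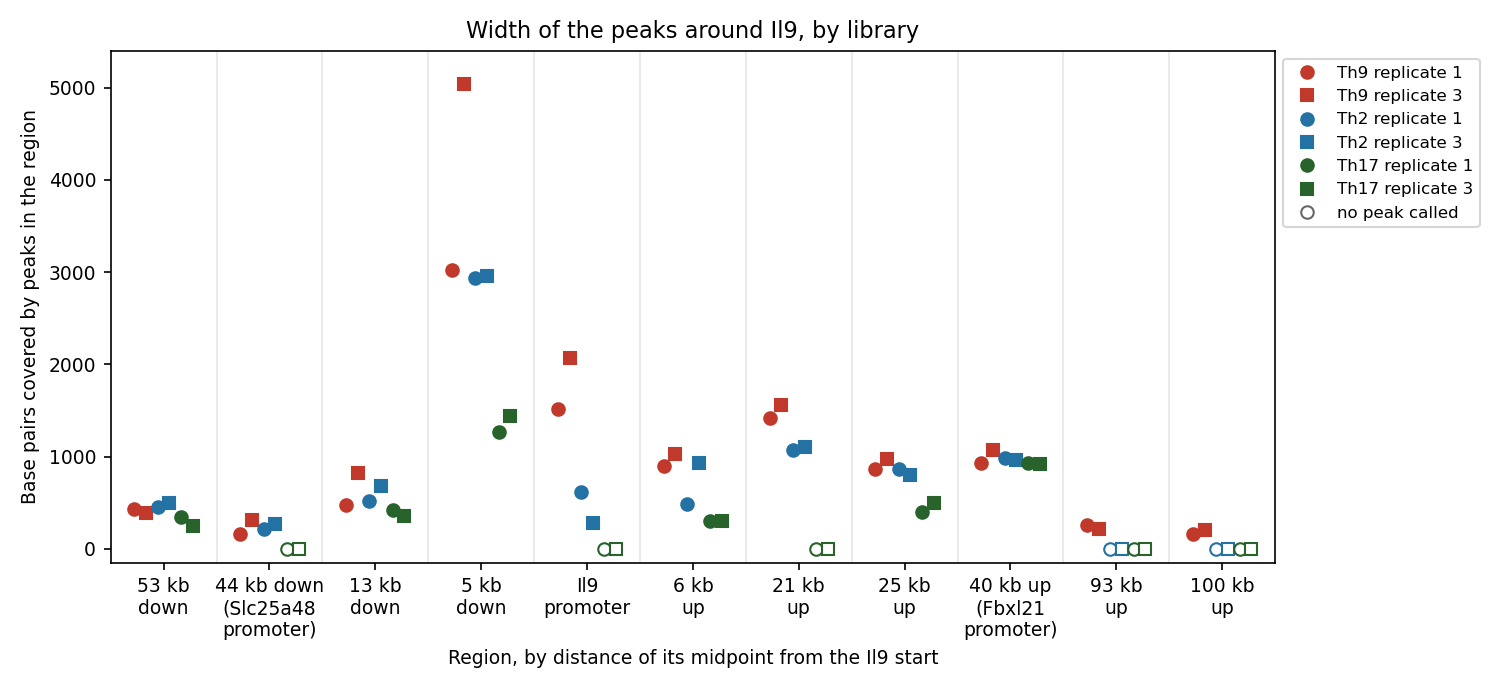
Base pairs covered by peaks (vertical axis) for each library at the 11 regions called in both libraries of at least 1 subset, with open symbols at 0 for libraries with no peak. The downstream region spans 1271 to 5041 bp, with both Th17 libraries lowest, and the region 40 kb upstream is nearly as wide in every library.

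Of the 16 regions, 8 lay wholly outside the stretch from 40 kb upstream to 10 kb downstream of the gene body, and the regions 13 kb downstream and 40 kb upstream straddled its ends. The region 40 kb upstream (56521904 to 56523016) covers the promoter and first exon of Fbxl21, an F-box protein that acts on circadian cryptochromes. It was among the strongest of the window in every library, with fold enrichments of 8.48 and 10.8 in Th9, 6.08 and 8.92 in Th2, against 6.84 and 4.99 in Th17. Its widths of 924 to 1072 bp were close to each other in all 6 libraries, and none of the 3 differences passed, that between Th9 and Th17 being 0.40 ± 0.19 (adjusted p = 0.251).

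On the other side of Il9 lies Slc25a48, a member of the mitochondrial carrier family. A region in its intron 13 kb downstream of the Il9 start (56468397 to 56469335) was called in all libraries at fold enrichments of 3.58 and 3.23 in Th9, 3.34 and 4.03 in Th2, against 3.15 and 2.47 in Th17, and the difference of 0.16 ± 0.19 between Th9 and Th17 did not pass (adjusted p = 0.732). The promoter of Slc25a48, 44 kb downstream (56438238 to 56438649), had weak peaks of 165 and 319 bp in Th9 and 221 and 276 bp in Th2, and none in Th17. Its fold enrichments of 2.12 to 2.37 lay at percentiles of 36.7 to 48.1 within their lists.

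Further out, the region 53 kb downstream (56428919 to 56429563), in an exon of the predicted gene Gm3045, was called in all 6 libraries with fold enrichments of 2.46 and 2.45 in Th9, 2.50 and 2.64 in Th2, against 2.27 and 1.98 in Th17. The differences were 0.06 for Th9 against Th17, -0.10 for Th9 against Th2 and 0.16 for Th2 against Th17 on the log2 scale, and none passed. The promoters of Gm3045 and of Lect2, which encodes a chemotactic factor of the liver, had no peak in any library. The longest stretch of the window without a peak in any library, 52571 bp from 56523017 to 56575587, held all of Lect2 and most of Fbxl21. The next, 41187 bp, was at the downstream end of the window, and the third, 29747 bp, lay inside Slc25a48.

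At the upstream end, 2 regions were called in both Th9 libraries and in no other. The peaks 93 kb upstream (56575588 to 56575846) were 259 and 216 bp wide, at fold enrichments of 2.82 and 2.38. Those 100 kb upstream (56582180 to 56582495) were 167 and 211 bp wide, at 2.43 and 2.59, and of the pair the peak of replicate 3 starts just beyond the edge of the window and is not among the 60. All 4 peaks were weak, at percentiles of 43.2 to 65.4. With no call in Th2 or Th17 to set against them, no p is given.

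The remaining 5 regions were called in no subset by both libraries. The region 98 kb upstream was called in Th9 replicate 3 (973 bp, percentile 40.8) and in Th17 replicate 1 (183 bp, percentile 42.3), and its central 300 bases are wholly marked as repeats (100% soft-masked in the assembly). The other 4, at 62, 60, 46 and 11 kb downstream, were called in a single library, in each case of Th9. They were 211 to 285 bp wide at percentiles of 1.47 to 44.7, and the central 300 bases of the region 62 kb downstream were soft-masked over 90.3%. Across all regions, 28.9% were soft-masked over most of these 300 bases.

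By the libraries that called them, the regions of the window fell into few patterns. All 6 libraries called 6 of the 16 regions, against 21.4% of all regions. Another 3, the Il9 promoter, the region 21 kb upstream and the Slc25a48 promoter, were called in the 4 libraries of Th9 and Th2 but in no Th17 library, against 2.0% of all regions. The 2 regions of both Th9 libraries only stood against 1.31%, and the 4 of a single library against 37.2%. Of those 2, the region 100 kb upstream counts for Th9 replicate 3 through a peak beyond the window edge. With peaks of fold enrichment 4 or more, the Il9 promoter and the region 21 kb upstream were left in the Th9 libraries only, and those 25 and 6 kb upstream in Th9 and Th2 only. These 2 patterns stood against 2.38% and 5.01% of the 33041 regions under that limit. In the full lists, no region was called in both Th2 libraries only or in both Th17 libraries only, against 2.87% and 1.70% of all regions. The shares of all regions moved with the rule. Regions called in all libraries made up 36.5% with fold enrichment 4 or more and 39.9% in the top 20000 peaks. That share was 10.4% where at least 50% of the region had to be covered. Those of Th9 and Th2 without Th17 made up 2.82% with a −log10 q of at least 5 and 3.50% in the top 20000. A count of this size was not tested.

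Among the 6 regions called everywhere, the peaks of Th17 were mostly narrower than those of Th9 and Th2. Both Th17 widths lay below both Th9 widths in 5 of the 6, against 18.5% of the 50493 regions called in all libraries. They lay below both Th2 widths in 6 of the 6, against 36.9%. By percentile, both Th17 libraries lay below both Th9 libraries in 3 of the 6, against 21.3%, and below both Th2 libraries in 4 of the 6, against 25.2%. In the limma fit of fold enrichment, 2 of the 6, those at 25 and 6 kb upstream, were higher in Th9 than in Th17 (3.11% of all regions tested) and 1, that downstream of the gene, was lower (2.90%). Between Th9 and Th2, none of the 6 passed in either direction, against 1.01% higher and 2.18% lower among all regions (511 and 1100 regions, where median centring in place of quantile normalization gave 1054 and 969), and 1 of the 6 had an unadjusted p under 0.05, as did 9057 of the 50493. Between Th2 and Th17, the region at 25 kb was higher in Th2 (5.04% of all) and the downstream region lower (2.40% of all). The median difference over the 6 was 0.28 for Th9 against Th17, 0.09 for Th9 against Th2 and 0.20 for Th2 against Th17, where the medians over all regions were -0.0012, 0.0155 and -0.032.

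**Figure D5:**
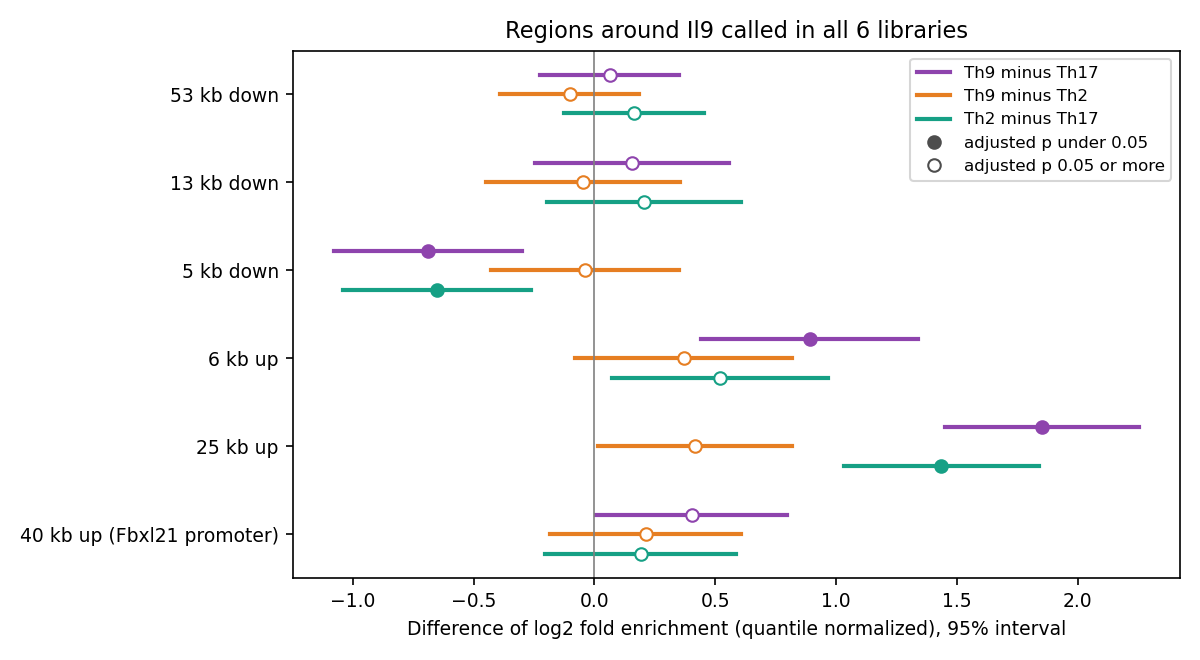
Difference of log2 fold enrichment after quantile normalization (horizontal axis; points, with lines for the 95% interval) for the 6 regions of the window called in all libraries (rows) and the 3 pairs of subsets (colours); filled points passed an adjusted p of 0.05. The difference at 25 kb upstream reaches 1.85 for Th9 against Th17, and no point for Th9 against Th2 is filled.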

How the data were processed

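ATAC-seq libraries of Th9, Th2 and Th17 cells were read as the deposited broad peak lists, 1 list per library. Per the labels and the methods, the authors trimmed reads with Trim Galore 0.4.3, aligned concordant pairs to mm10 with Bowtie2, removed duplicates with Picard, dropped mitochondrial and poorly mapped reads, and called peaks in each library with MACS2 2.1.0 in broad mode, with paired-end fragments, without a local background and without an input library. Whether reads were shifted for Tn5 is not given in the sources used here. The deposited columns used were the ratio (fold enrichment over background) and the −log10 p and q values. Read counts were not used here, so the number of fragments over background was recovered from the fold enrichment and −log10 p of single peaks. Divided by the width of the shortest peak in its list, this number gave relative depth only.

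Peaks of all libraries were joined where they shared or touched at 1 bp. The Il9 window, its flanks of 100 kb and the regions were chosen with earlier results of these data known. Every region in the window is listed, those called in both libraries of a subset are described singly, and every protein-coding gene in the window is named. A promoter ran from 1000 bp before to 100 bp after a start (GENCODE M21 basic). Log2 fold enrichment (strongest peak per region) over 50493 regions, and log2(covered bp + 1000) over 21951 gene windows, were quantile normalized and fitted with limma 3.58.1 in R 4.3.3, with Benjamini-Hochberg adjustment over all rows and a threshold of 0.05. The fit was tested on simulated data. Single values used exact permutation tests. Alternatives were stricter lists, other scalings, missing calls set to the lowest value, a replicate block and leaving out each library. Nothing was corrected for depth in the main fits. Of the marker promoters looked up, 1 is not reported here.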

Additional observations from a re-analysis of the deposited data

How the results depend on the processing

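The direction of Th9 against the other libraries in the number of peaks and in covered base pairs, and the higher fold enrichment 25 kb upstream in Th9 and in Th2 than in Th17, held under every alternative that gave a value. The latter passed in 13 of 13 settings for both (adjusted p up to 0.0228 and 0.0312), and the region drops out where peaks need a fold enrichment of 4 or more, or a −log10 q of 5 or more. Deviations from the subset means of same-numbered libraries correlated at 0.207 for Th9 with Th2, 0.0098 for Th9 with Th17 and 0.001 for Th2 with Th17 over regions, and at 0.604, 0.0337 and -0.0156 over windows. Not every pair passed 0.1, so the numbers were not taken as pairing. With the replicate block, the Il9 window passed for Th9 against Th17 (1.45, adjusted p = 0.0449), and no region of the window changed its call. The window also passed with a −log10 q of at least 5 (1.60, adjusted p = 0.04), the adjusted p running from 0.04 to 0.518 over 14 alternatives. Over all gene windows the block called 100 higher and 85 lower for Th9 against Th17 and 20 and 29 for Th9 against Th2. With the −log10 q limit these were 42 and 95, and 8 and 34, with 57 and 39 for Th2 against Th17. With the fold enrichment limit of 4 they were 10 and 3, 19 and 15, and 19 and 6. Over all regions, 29 to 2215 were higher and 5 to 1789 lower in Th9 than in Th17 across the alternatives, 0 to 1054 and 0 to 1454 for Th9 against Th2, and 222 to 4702 and 34 to 2228 for Th2 against Th17. Median centring left medians over all regions of 0.12 for Th9 against Th2 and -0.10 for Th2 against Th17. Without a library, the lone library of its subset is assumed to vary like the others.

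The number of window regions higher in Th9 than in Th17 was 1 with a −log10 q of at least 5, 0 with the fold enrichment limit of 4, and 1 to 2 without single libraries. The number lower was 0 with median centring, a fold enrichment of at least 4, the width-weighted mean, missing calls filled or fold enrichment times width, and 0 to 1 without single libraries. For Th2 against Th17, the number higher was 0 with a −log10 q of at least 5 or the fold enrichment limit, and 1 in each setting without a single library. The number lower was 0 with those 2 settings, median centring, the width-weighted mean, missing calls filled or fold enrichment times width, and 0 to 1 without single libraries. Where peaks or regions drop out by the stricter limits, fewer regions are tested. The cause of the other changes was not tested.

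Regions called in all libraries numbered 2 with fold enrichment 4 or more, 2 in the top 20000 peaks and 1 with at least 50% of the region covered. Those of Th9 and Th2 without Th17 numbered 0 with a −log10 q of at least 5 and 1 in the top 20000. Those of Th9 only numbered 1 with that q limit (0.572% of all) and 6 when either library of a subset sufficed (16.8%). They numbered 2 to 5 without single libraries, the 5 being without Th9 replicate 1 (6.33%). With fold enrichment times width, the downstream region reversed for Th9 against Th17 (1.15), Th2 against Th17 (0.78) and Th9 against Th2 (0.36). Among differences that never passed, Th9 against Th2 turned to 0.26 at 13 kb and 0.0164 at 53 kb with the same measure. Without single libraries, it ranged from -0.15 to 0.046 at 13 kb, from -0.23 to 0.035 at 53 kb and from -0.19 to 0.11 at the downstream region, Th9 against Th17 at 53 kb from -0.0597 to 0.21, and Th2 against Th17 at 40 kb from -0.0084 to 0.41. Th9 replicate 1, the shallowest library, lists no peak under a fold enrichment of 2.11. Of the 4 regions called in Th9 replicate 3 and not there, that at 46 kb downstream (1.84) lies below this value and those at 62 kb and 11 kb downstream and 98 kb upstream (2.29, 2.22 and 2.23) above it.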
